A study of Mus musculus with 12 samples.

Results

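The 6 fibroblast marker genes Pdgfra, Tcf21, Dcn, Lum, Gsn and Dpt were followed across 12 mouse ventricle RNA-seq samples. They were chosen by symbol, and each symbol had 1 entry among the 33641 genes listed for every sample. All 6 passed the filter on low values, with 12526 genes tested in all. The study made knock-in mice in which human phospholamban (PLN) replaced the mouse protein, the inhibitor of the sarcoplasmic reticulum calcium pump, either as wild type (WT-PLN) or with arginine 14 deleted (R14del-PLN). The R14del-PLN mice were heterozygous and so also carried a WT human copy, and the controls carried human WT-PLN, so that human PLN was common to all 4 groups. Left (LV) and right ventricle (RV) tissue was taken from WT-PLN and R14del-PLN hearts, with 3 samples in each of the 4 groups LV WT-PLN, LV R14del-PLN, RV WT-PLN and RV R14del-PLN. The labels gave an age of 12 to 14 weeks and the strain C57BL/6J, whereas the methods described male mice of a hybrid 129/Sv and C57Bl/6J line made with Sox2-Cre. The cassette sits in the Pln gene itself, so that no transgene promoter was involved, the sample titles call the R14del-PLN samples KO, and the labels do not say whether an LV and an RV sample came from the same heart.

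Cardiac fibroblasts are the interstitial cells that lay down and remodel the collagen network around cardiomyocytes. Most descend from the epicardium, a step that needs the transcription factor TCF21, and they carry the PDGF receptor alpha on their surface. When activated by injury or TGF-beta they turn into matrix-secreting myofibroblasts, and fibrosis is a known feature of late phospholamban cardiomyopathy.

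By role, the 6 genes fall into 3 kinds. Pdgfra encodes the receptor tyrosine kinase for PDGF ligands, and Tcf21 encodes a basic helix-loop-helix transcription factor. Dcn (decorin) and Lum (lumican) encode small leucine-rich proteoglycans that bind collagen fibrils, and Dpt (dermatopontin) encodes a small matrix protein that binds decorin. Gsn encodes gelsolin, an actin-severing protein with a secreted form, which is abundant in cardiac fibroblasts but is also made by other cells of the heart.

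In the GENCODE M21 annotation of GRCm38, 3 of the 6 genes lie on chromosome 10, where Pln lies too (53337667 to 53345987). Tcf21 spans 22817281 to 22820174 on the minus strand, 30.5 Mb from Pln. Dcn spans 97479609 to 97518143 and Lum 97565128 to 97572703, both on the plus strand, with 46984 bases and 0 annotated genes between them. They are neighbouring proteoglycan genes, 44.2 Mb from Pln. Pdgfra spans 75152292 to 75198215 on chromosome 5, Gsn 35256380 to 35307892 on chromosome 2 and Dpt 164796644 to 164824266 on chromosome 1, all on the plus strand. No other annotated gene had a stretch of at least 100 bases with at least 90% identity to the longest coding transcript of any of the 6. The spans of antisense genes, introns included, cover exonic bases of Pdgfra (Gm42802), Tcf21 (Gm10824) and Dpt (Gm32569). None of the 3 had an entry in the value files, and although the libraries were strand-specific, whether the counting used strand is not given in the sources used here.

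Upstream sequences are shown because TCF21 binds E-boxes and because the 6 genes were compared for how they move together. RefSeq (GRCm38.p6) start-site windows were held for 4 of the 6 genes (Pdgfra, Tcf21, Gsn with 3 start sites, and Dpt), and for none of Dcn and Lum. The 250 bases before each start were searched on both strands for the E-box CANNTG, its form CAGCTG (a subset of the former), the AP-1 site TGANTCA, the TEAD site GGAATG, the SMAD site GTCTAGAC and the TATA box TATAAA. Of 32851 promoter windows of the same length, 66.2% held CANNTG, 13.0% CAGCTG, 6.75% TGANTCA, 12.6% GGAATG, 0.167% GTCTAGAC and 12.4% TATAAA. Of the 6 windows of the fibroblast marker genes, only those of Pdgfra, Gsn and Dpt held a match, and it was to the E-box alone. Capitals mark E-boxes below, and bases inside an annotated transcript are left out. The lines are Dpt at chr1:164796413-164796643 on the plus strand, Gsn at chr2:35256109-35256358 on the plus strand for its first start site, and Tcf21 at chr10:22820175-22820393 on the minus strand.
Dpt: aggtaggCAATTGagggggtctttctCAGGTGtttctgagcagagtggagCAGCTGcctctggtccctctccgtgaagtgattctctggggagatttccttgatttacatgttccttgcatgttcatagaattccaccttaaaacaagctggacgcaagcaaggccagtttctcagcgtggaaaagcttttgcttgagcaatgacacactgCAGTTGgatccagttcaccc
Gsn: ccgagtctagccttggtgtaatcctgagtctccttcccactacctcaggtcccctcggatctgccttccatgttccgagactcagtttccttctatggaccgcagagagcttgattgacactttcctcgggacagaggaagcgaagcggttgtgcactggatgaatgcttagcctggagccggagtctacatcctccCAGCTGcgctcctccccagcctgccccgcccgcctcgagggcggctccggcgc
Tcf21: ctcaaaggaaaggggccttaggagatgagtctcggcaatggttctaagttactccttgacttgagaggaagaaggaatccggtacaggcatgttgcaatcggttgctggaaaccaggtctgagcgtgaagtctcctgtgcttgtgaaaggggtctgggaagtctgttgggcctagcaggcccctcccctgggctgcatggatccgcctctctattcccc
The Dpt window held 6 E-boxes in its 250 bases, 4 of them in the stretch printed and 1 of them CAGCTG, and 0.274% of all windows held at least 6. The Gsn window at the first start site held 1 E-box, a CAGCTG 53 to 48 bases before the start, and the Pdgfra window held 1 as well. The other Gsn start sites held 2 E-boxes each. The Tcf21 window held 0 matches to any of the 6 patterns. A match is a description of these letters and says nothing about binding.

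All 6 genes were detected in all 12 samples, over a wide range of levels in TPM, a unit of transcript abundance already divided by transcript length so that genes can be compared. Gsn had the highest mean level, 448 ± 105 TPM (SD, n = 12), followed by Dcn at 272 ± 59.7 TPM. They stood above 98.9% and 98.1% of the genes tested. Dpt followed at 44.4 ± 11.3 TPM and Lum at 25.8 ± 5.80 TPM. The receptor and the transcription factor were lowest, with Pdgfra at 6.74 ± 1.03 TPM and Tcf21 at 4.66 ± 0.840 TPM, near the middle of the tested genes. This order, Gsn, Dcn, Dpt, Lum, Pdgfra, Tcf21, was the same in 12 of 12 samples. Over samples, the ranges of Gsn and Dcn, of Dpt and Lum and of Pdgfra and Tcf21 overlapped, whereas those of Dcn and Dpt and of Lum and Pdgfra did not. In bulk tissue a level cannot be assigned to 1 cell type, and fewer fibroblasts and less RNA per fibroblast cannot be told apart.

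Facts of the series that touch these values were as follows. Mitochondrially encoded genes took 37.3% to 54.5% of all TPM. TPM keep no read counts, so the depth behind each value is unknown. The 4 Y-linked genes read (Kdm5d, Eif2s3y, Ddx3y, Uty) were at 0.0159 to 0.191 TPM in the LV and RV samples numbered 1 of WT-PLN. The other 10 samples held 3.03 to 30.6 TPM of each. The methods described male mice, and the values of the samples numbered 1 of WT-PLN go against this for both. Since both are WT-PLN, the genotype comparisons were unbalanced in Y-linked expression. RV R14del-PLN replicate 3 carries another sequencing run number than the other 11. Pln itself, whose mean ranged from 1630 ± 79.5 TPM in LV R14del-PLN to 1801 ± 85.1 TPM in LV WT-PLN (n = 3 each), does not check the genotype, since both alleles were replaced.

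**Figure D1:**
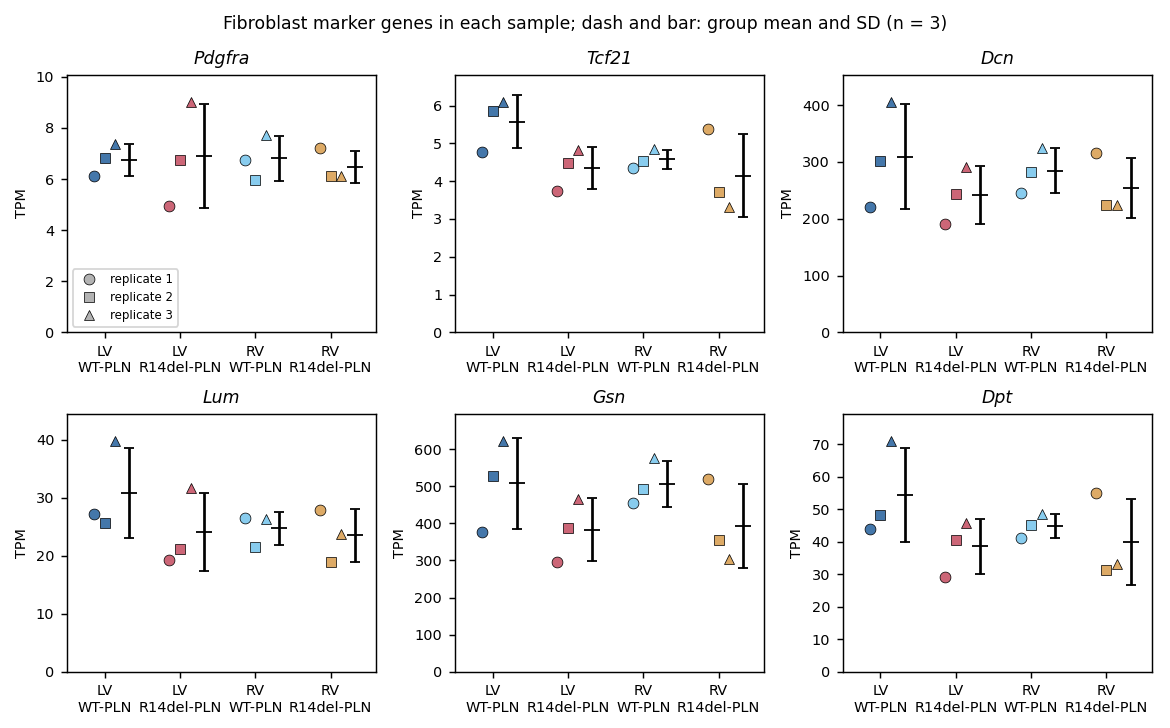
Level of each fibroblast marker gene in TPM (y axes, from 0) in the 4 groups of ventricle and genotype (x axes). Each symbol is 1 sample, its shape gives the replicate number, and the dash and bar give the group mean and SD (n = 3). For each of the 6 genes, the ranges of all 4 groups overlap.

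The first question was whether fibroblast genes differ between R14del-PLN and WT-PLN ventricles. None of the 6 passed the test in LV or RV. A gene passed with a limma adjusted p up to 0.05 together with a change of 1.5-fold or more in either direction. In LV the 6 fitted values were all lower in R14del-PLN as deposited, with a median log2 fold change of -0.34 on the log2(TPM + 1) scale, but the median of all tested genes was also below 0, at -0.09, and 71.7% of all genes were lower. The median of the 6 was -0.20 without LV WT-PLN replicate 3, -0.21 without LV R14del-PLN replicate 1 and -0.51 without LV R14del-PLN replicate 3, with all-gene medians of -0.02, -0.02 and -0.19. Without LV WT-PLN replicate 1, a sample with low Y-linked genes, it was -0.49, against -0.15 for all genes. Over all genes, 65 (0.519%) passed the test in LV. At an unadjusted p of at most 0.05 the count was 0 of 6, against 9.6% of all genes, and for 0 of 6 did the 3 R14del-PLN samples stand clear of the 3 WT-PLN samples, against 11.0% of all genes.

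Among the matrix genes, Dpt had the lowest fitted value in LV. Its level was 44.0, 48.2 and 70.9 TPM in the LV WT-PLN samples and 29.1, 40.7 and 45.9 TPM in the LV R14del-PLN samples. The highest R14del-PLN sample thus lay above the lowest WT-PLN sample. The log2 fold change was -0.48 (SE 0.23, 95% confidence interval -0.98 to 0.02, limma adjusted p = 0.548), so that the interval reached from 0.508-fold to 1.02-fold. Without LV WT-PLN replicate 3, the highest Dpt sample of all, the log2 fold change was -0.27. Without LV R14del-PLN replicate 3 it was -0.61.

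Dcn, the most abundant of the matrix genes, was at 220.3, 302 and 405 TPM in LV WT-PLN and at 191, 244 and 292 TPM in LV R14del-PLN. Within each genotype its highest sample was more than 1.5 times its lowest, and the groups overlapped. The log2 fold change was -0.33 (SE 0.22, interval -0.81 to 0.15, limma adjusted p = 0.708). It was -0.11 without LV WT-PLN replicate 3 and -0.55 without LV WT-PLN replicate 1. Lum, the neighbour and relative of Dcn, was at 27.1, 25.6 and 39.7 TPM in LV WT-PLN and at 19.2, 21.1 and 31.7 TPM in LV R14del-PLN. In each genotype 1 sample, replicate 3, stood above the other two. The log2 fold change of Lum was -0.35 (SE 0.21, interval -0.80 to 0.10, limma adjusted p = 0.646). It was -0.16 without LV WT-PLN replicate 3 and -0.56 without LV R14del-PLN replicate 3.

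Gsn was at 376, 527 and 621 TPM in LV WT-PLN and at 295, 389 and 464 TPM in LV R14del-PLN. Here too the groups overlapped, and the log2 fold change was -0.40 (SE 0.23, interval -0.89 to 0.09, limma adjusted p = 0.624). It was -0.60 without LV WT-PLN replicate 1 and -0.23 without LV R14del-PLN replicate 1. Tcf21 was at 4.78, 5.86 and 6.09 TPM in LV WT-PLN and at 3.73, 4.47 and 4.83 TPM in LV R14del-PLN, the overlap being between the lowest WT-PLN and the highest R14del-PLN sample. Its log2 fold change was -0.30 (SE 0.16, interval -0.63 to 0.04, limma adjusted p = 0.580).

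Pdgfra was the gene with the smallest LV value. It was at 6.11, 6.83 and 7.36 TPM in LV WT-PLN and at 4.94, 6.75 and 9.01 TPM in LV R14del-PLN, so that the lowest and the highest of all 12 samples were both in LV R14del-PLN. The log2 fold change was -0.00 (SE 0.17, interval -0.37 to 0.37, limma adjusted p = 0.997). The sign of the Pdgfra value was the only one of the 6 that turned in LV with another scaling, to 0.10 after quantile normalization, 0.11 after upper quartile scaling and 0.01 without mitochondrially encoded genes. With quantile normalization and upper quartile scaling the LV median of all genes moved from -0.09 to 0.01 and 0.02 and that of the 6 from -0.34 to -0.22 and -0.21, and the other 5 genes stayed lower in R14del-PLN with each of the 3.

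In RV the 6 values were again lower in R14del-PLN, with those 3 scalings too, at a median log2 fold change of -0.15 against -0.00 for all tested genes, of which 50.9% were lower. The median of the 6 was -0.32 without RV R14del-PLN replicate 1 and -0.08 without RV R14del-PLN replicate 2, where the all-gene medians were -0.00 and -0.05, and it was -0.09 without RV R14del-PLN replicate 3 or RV WT-PLN replicate 3. Without both WT-PLN replicate 1 samples it was -0.22, against -0.04 for all genes. None of the 6 passed the test, against 34 genes in all (0.271%). At an unadjusted p of at most 0.05 the count was 0 of 6 against 6.22% of all genes, and 0 of 6 had groups that did not overlap, against 11.0%. In RV WT-PLN, Gsn was at 454, 492 and 575 TPM, and in RV R14del-PLN at 520.0, 355 and 304 TPM. Replicate 1 of RV R14del-PLN lay inside the WT-PLN range and the other two lay below it. The log2 fold change was -0.40 (SE 0.23, interval -0.89 to 0.10, limma adjusted p = 0.950), and without RV R14del-PLN replicate 1 it was -0.62 (limma adjusted p = 0.481).

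The same sample was highest of the RV R14del-PLN group for each of the 6 genes. Dpt was at 41.2, 45.2 and 48.6 TPM in RV WT-PLN and at 55.2, 31.4 and 33.1 TPM in RV R14del-PLN, so that replicate 1 exceeded each WT-PLN sample and the other two were below each. Its log2 fold change was -0.21 (SE 0.23, interval -0.71 to 0.29, limma adjusted p = 1). Dcn was at 246, 282 and 325 TPM in RV WT-PLN and at 315, 224 and 224 TPM in RV R14del-PLN, with a log2 fold change of -0.17 (SE 0.22, limma adjusted p = 1). The pattern of Dcn was that of Gsn, with 1 mutant sample inside the WT-PLN range.

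Tcf21 was at 4.35, 4.54 and 4.84 TPM in RV WT-PLN and at 5.39, 3.73 and 3.33 TPM in RV R14del-PLN, with a log2 fold change of -0.14 (SE 0.16, limma adjusted p = 1). Lum was at 26.4, 21.5 and 26.3 TPM in RV WT-PLN and at 27.9, 18.9 and 23.7 TPM in RV R14del-PLN, and Pdgfra was at 6.74, 5.98 and 7.72 TPM against 7.20, 6.10 and 6.13 TPM. Leaving out 1 sample moved the RV log2 fold change of Dpt between -0.46 and -0.07, that of Dcn between -0.33 and -0.07 and that of Tcf21 between -0.30 and -0.02, the lowest each time without RV R14del-PLN replicate 1. For Lum and Pdgfra the genotypes were interleaved, with log2 fold changes of -0.08 (SE 0.21) and -0.06 (SE 0.17) and a limma adjusted p of 1 for both. The 95% interval of the fold change in RV ran from 0.690 to 1.29 for Lum and from 0.742 to 1.24 for Pdgfra.

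The 2 genotype effects were then compared with each other. The interaction, the RV minus the LV log2 fold change, ranged over the 6 genes from -0.06 for Pdgfra to 0.27 for Lum, with standard errors of 0.22 to 0.33. None passed (limma adjusted p = 1.00 for each), and neither did any other gene (0.0% of all genes at an adjusted p of at most 0.05). At an unadjusted p of at most 0.05 the count was 0 of 6, against 127 genes or 1.01%. A genotype effect in 1 ventricle and not in the other was therefore not shown for any of the 6.

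**Figure D2:**
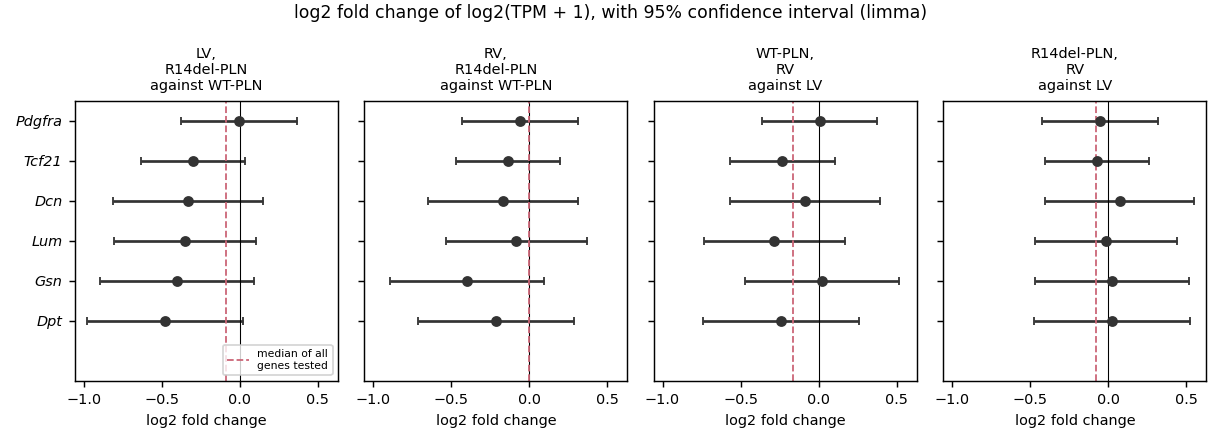
log2 fold change of each fibroblast marker gene (x axes, on the log2(TPM + 1) scale) in the 4 comparisons, with the limma estimate as a point and its 95% confidence interval as a bar. The dashed line is the median of all 12526 genes tested, and all 24 intervals include 0.

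The second question was whether the ventricles differ within a genotype. In WT-PLN, 4 of the 6 values were lower in RV as deposited, and 3 of 6 with each of the other scalings. The median of the 6 was -0.16 as deposited against -0.17 for all genes, 0.03 after quantile normalization and 0.04 after upper quartile scaling against 0.01 and 0.00, and -0.03 without mitochondrially encoded genes against -0.06. It also turned with single samples, being 0.01 without LV WT-PLN replicate 3 (3 of 6 lower) and -0.32 without LV WT-PLN replicate 1 (6 of 6 lower). It was -0.08 without RV WT-PLN replicate 1. The values ran from -0.28 for Lum (SE 0.21) to 0.02 for Gsn (SE 0.23), and the lowest limma adjusted p was 0.459, for Tcf21. No gene of the 12526 passed the test between the ventricles of WT-PLN hearts (0.0%). With the replicate number as a block within the genotype, 12 genes passed (0.0958%), and the count of fibroblast marker genes among them was 0. At an unadjusted p of at most 0.05 there were 0 of the 6 against 14.5% of all genes, and groups that did not overlap were seen for 0 of the 6 against 26.1%.

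In R14del-PLN hearts the values as deposited gave log2 fold changes from -0.07 for Tcf21 to 0.07 for Dcn and 3 of the 6 higher in RV. With quantile normalization, upper quartile scaling or removal of mitochondrially encoded genes, 6 of 6 were higher in RV, at medians of 0.12, 0.10 and 0.17 against 0.00, 0.00 and 0.06 for all genes. Leaving out 1 sample moved the median of the 6 from 0.01 to -0.17 (without RV R14del-PLN replicate 1) and -0.15 (without LV R14del-PLN replicate 1), with 6 of 6 lower in both, and to 0.17 without LV R14del-PLN replicate 3. It was 0.10 without RV R14del-PLN replicate 2 and 0.09 without RV R14del-PLN replicate 3. None passed the test (limma adjusted p of at least 0.999), as did no other gene (0.0%). At an unadjusted p of at most 0.05 there were 0 of the 6 against 6.57% of all genes, and groups that did not overlap were seen for 0 of the 6 against 9.98%. The 95% intervals still allowed differences of some size, such as 0.720-fold to 1.44-fold for Dpt.

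In R14del-PLN, samples of the same number differed in opposite directions. Numbers were not taken to pair the R14del-PLN samples, so these differences are not read as differences within a heart. In R14del-PLN replicate 1, each of the 6 genes was higher in RV than in LV, by 0.43 (Tcf21) to 0.90 (Dpt) on the log2(TPM + 1) scale. In R14del-PLN replicates 2 and 3, each of the 6 was lower in RV. For Gsn the levels were 295 TPM in LV and 520.0 TPM in RV in replicate 1, 389 and 355 TPM in replicate 2, and 464 and 304 TPM in replicate 3. In WT-PLN replicate 1 the differences ran from -0.11 (Tcf21) to 0.27 (Gsn), and in WT-PLN replicate 2 each of the 6 was lower in RV. In WT-PLN replicate 3 the difference was -0.57 for Lum, -0.54 for Dpt and 0.06 for Pdgfra. Over the 3 WT-PLN numbers, Tcf21 (-0.11, -0.31 and -0.28), Lum (-0.03, -0.24 and -0.57) and Dpt (-0.09, -0.09 and -0.54) were lower in RV each time, and none of them passed with the replicate block within the genotype.

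The 6 genes moved together from sample to sample. Taking each gene's deviation from its own mean over 12 samples on the log2(TPM + 1) scale, LV WT-PLN replicate 3 stood highest with a mean deviation of 0.48 and 6 of 6 genes above their means. LV R14del-PLN replicate 1 stood lowest at -0.43 with 0 of 6 above. In 8 of the 12 samples all 6 genes lay on the same side of their means. RV R14del-PLN replicates 2 and 3 were at -0.29 each, and RV R14del-PLN replicate 1 was at 0.21. The highest sample of a gene was 1.82 times its lowest for Pdgfra and 2.44 times for Dpt, the smallest and the largest of these ratios among the 6.

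**Figure D3:**
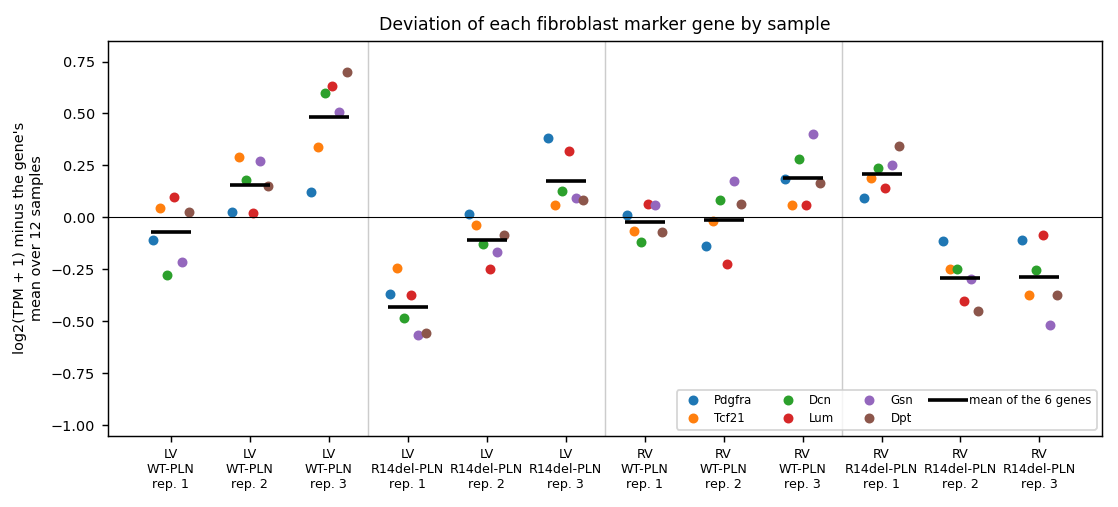
Deviation of each fibroblast marker gene from its own mean over the 12 samples (y axis, log2(TPM + 1)), by sample (x axis), with the mean of the 6 genes as a black bar. The mean runs from -0.43 in LV R14del-PLN replicate 1 to 0.48 in LV WT-PLN replicate 3, and samples of 1 group lie on both sides of 0.

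Over the 12 samples the Pearson r between 2 of the 6 genes had a median of 0.76 over the 15 pairs, from 0.57 for Pdgfra and Tcf21 to 0.94 for Dcn and Gsn. The median of Spearman's rho was 0.78. After the group means were removed the median r was 0.79, so that the genes also moved together within groups. Without the 2 samples in which the first gene of a pair lay farthest from its median, it was 0.75. Of all tested genes, 71.7% had a lower r with Pdgfra than Tcf21 had, and 99.9% a lower r with Dcn than Gsn had. For Gsn, 88.5% had a lower r than Lum had. Gsn, Dcn, Dpt and Tcf21 had r of 0.83 to 0.94 between them, whereas Pdgfra had r of 0.57 to 0.71 with the other 5 genes. The neighbours Dcn and Lum had an r of 0.76, below the r of 0.94 that Dcn had with Gsn on another chromosome. All values of a sample come from 1 library and share its composition. With other scalings the median r was lower, at 0.56 after upper quartile scaling, 0.67 without mitochondrially encoded genes and 0.46 after quantile normalization, and the r of the mean of the 6 genes with the mitochondrially encoded share of TPM was -0.57.

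**Figure D4:**
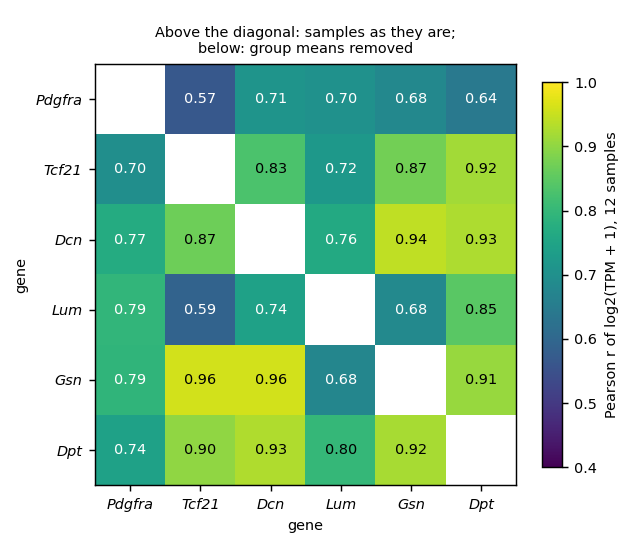
Pearson r of log2(TPM + 1) between each pair of the 6 fibroblast marker genes over 12 samples (both axes list the genes, colour and number give r). Above the diagonal the samples are taken as they are, with r from 0.57 to 0.94, and below it the group means were removed.

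The ratio of the most abundant pair ran from 1.36 to 1.85 over the samples. Gsn was 1.58 ± 0.0277 times Dcn in LV R14del-PLN, 1.66 ± 0.112 times in LV WT-PLN, 1.79 ± 0.0556 times in RV WT-PLN and 1.53 ± 0.152 times in RV R14del-PLN (n = 3 each). In RV the ranges, 1.74 to 1.85 in WT-PLN and 1.36 to 1.65 in R14del-PLN, did not overlap, whereas those in LV did. The ratio of Pdgfra to Tcf21 did not overlap in LV, at 1.16 to 1.28 in WT-PLN and 1.32 to 1.86 in R14del-PLN, but did in RV. Among single genes, 11.0% had genotype groups that did not overlap in either ventricle's comparison, and no such share was worked out for ratios. Differences in these ratios were not tested. Gsn and Dcn together made up 87.9% to 91.1% of the summed TPM of the 6 genes in every sample. Dcn was 10.04 ± 1.83 times Lum in LV WT-PLN and 10.2 ± 1.21 times in LV R14del-PLN, and 11.6 ± 2.03 and 10.9 ± 1.29 times in RV.

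The genes whose levels followed each fibroblast marker most closely over the 12 samples were listed, leaving the 6 out. For Dcn these included Ldlrad4 (r = 0.983) and Mmp19 (0.962), and for Gsn they were Mmp19 (a matrix metalloproteinase, 0.978), C1ra (complement subcomponent C1r, 0.975) and Serping1 (the C1 inhibitor, 0.964). For Dpt they were Tmem176b (0.957), Selenop (selenoprotein P, 0.951) and Tcaf1 (0.948). For Tcf21 they were Ncf1 (a subunit of the phagocyte NADPH oxidase, 0.954), Ifi27 (0.949) and Fcgr3 (an Fc gamma receptor, 0.942). For Lum they included Rnf122 (0.920) and Mical1 (0.917), and for Pdgfra they were Ebf2 (a transcription factor, 0.937), Hsd17b12 (0.931) and Echdc3 (0.930). The genes that followed the mean of the 6 most closely included Rnase4 (0.963), Sptssa (0.960), Ppp2r1b (0.950), Mmp19 (0.949), Selenop (0.948), Vcam1 (0.947), Gm2a (0.945), Tmem176b (0.944) and Anxa1 (0.940). Over all tested genes the median r with that mean was 0.48, and 90% of genes lay between -0.08 and 0.79.

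The wider fibroblast programme was described by lists of other genes. Of 16 fibroblast matrix genes, all 16 were tested and 0 passed in any of the 4 comparisons. In LV the fitted value of 16 of 16 was lower in R14del-PLN, at a median log2 fold change of -0.36, and 16 of 16 were lower with each of the 3 other scalings, at medians of -0.24 to -0.37. Of all tested genes 71.7% were lower in LV as deposited, at a median of -0.09. The list's mean log2 deviation was 0.71 in LV WT-PLN replicate 3, against 0.14 and 0.20 in the other LV WT-PLN samples. It was -0.36, -0.10 and 0.30 in LV R14del-PLN. The most abundant were Sparc (a collagen-binding matricellular protein) at 122.7 ± 26.7 TPM in LV WT-PLN and 104 ± 19.8 TPM in LV R14del-PLN, Htra3 (a secreted protease) at 32.2 ± 1.62 and 26.1 ± 5.54 TPM, Col3a1 (fibrillar collagen III) at 29.9 ± 8.20 and 21.2 ± 5.92 TPM, and Cygb (cytoglobin) at 28.2 ± 3.55 and 25.6 ± 6.75 TPM. In RV, 12 of 16 were lower at a median of -0.13, with Sparc at 81.5 ± 10.5 and 79.5 ± 4.19 TPM and Col3a1 at 23.2 ± 7.97 and 21.4 ± 2.59 TPM. The lowest adjusted p of the list was 0.163 in LV and 0.202 in RV (limma). At an unadjusted limma p of at most 0.05 the count was 5 of 16 in LV and 2 of 16 in RV. Of all genes, 9.6% and 6.22% were.

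Of 16 fibroblast surface and identity genes, 0 passed either. At an unadjusted limma p of at most 0.05 there were 5 in LV and 3 in RV, against 9.6% and 6.22% of all genes. In LV, 12 of 16 were lower in R14del-PLN, at a median of -0.21, and 11 of 16 with upper quartile scaling or quantile normalization, at -0.08 and -0.10. In RV 9 of 16 were lower, at -0.15. The list's mean log2 deviation was 0.43 in LV WT-PLN replicate 3 and -0.03 and 0.23 in the other LV WT-PLN samples. It ran from -0.29 to 0.29 in LV R14del-PLN. Mgp (matrix Gla protein, an inhibitor of calcification) was at 308 ± 140.3 TPM in LV WT-PLN and 158 ± 43.1 TPM in LV R14del-PLN, and Ly6a (the surface antigen Sca-1) at 82.2 ± 10.5 and 71.3 ± 16.7 TPM. Clec3b (tetranectin) was at 38.0 ± 3.06 and 29.0 ± 6.24 TPM, and Dpep1 (a membrane dipeptidase) at 33.2 ± 6.64 and 25.0 ± 4.78 TPM.

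Of 15 activated fibroblast genes, 11 were tested and 1 passed in the genotype comparisons. It was Ctgf (connective tissue growth factor, a matricellular protein that also responds to TGF-beta and YAP), which was lower in R14del-PLN in both ventricles, at 107 ± 45.1 against 25.3 ± 3.11 TPM in LV and 155 ± 63.4 against 25.0 ± 14.1 TPM in RV. Ctgf reached -1.95 on the log2 scale in LV, at a limma adjusted p of 0.0476, and -2.62 in RV, at 0.0102. Of 23 alternatives the call held in 12 in LV (adjusted p 0.00303 to 0.211) and in 18 in RV (0.000752 to 0.0988), with log2 fold changes of -1.68 to -2.04 in LV and -2.33 to -2.62 in RV where it was lost. In LV it was lost without any 1 of the LV R14del-PLN samples, without LV WT-PLN replicate 2 or 3 and without RV WT-PLN replicate 2 or RV R14del-PLN replicate 3. It was also lost in LV with the replicate block (0.0533), quantile normalization (0.0626), removal of mitochondrially encoded genes (0.0595) and no filter (0.185). In RV it was lost without RV WT-PLN replicate 2 or 3 or RV R14del-PLN replicate 3, with no filter and with only the 6 samples compared. None of the other 10 passed, the most abundant being Acta2 (smooth muscle actin) at 61.6 ± 51.2 TPM in LV WT-PLN and 40.2 ± 10.4 TPM in LV R14del-PLN, Postn (periostin) at 18.9 ± 17.1 and 8.28 ± 3.73 TPM, and Fn1 (fibronectin) at 7.996 ± 3.96 and 4.34 ± 1.14 TPM. The list's median log2 fold change was -0.35 in LV and 0.05 in RV, with 10 and 5 of 11 lower. Its mean log2 deviation was 1.13 in LV WT-PLN replicate 3, against 0.05 and 0.14 in the other LV WT-PLN samples. It ran from -0.40 to 0.09 in LV R14del-PLN. At an unadjusted limma p of at most 0.05, Ctgf included, there were 3 of 11 in LV and 1 of 11 in RV. The shares of all genes were 9.6% and 6.22%.

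The relatives and partners of the 6 genes gave no call either. Of 9 other small leucine-rich proteoglycan genes, 6 were tested and 6 were lower in LV R14del-PLN, as deposited and with each of the 3 other scalings, at a median of -0.55 as deposited with a lowest adjusted p of 0.294 (limma). Bgn (biglycan) was at 95.9 ± 38.4 TPM in LV WT-PLN and 60.4 ± 10.1 TPM in LV R14del-PLN, Ogn (osteoglycin) at 47.2 ± 3.45 and 39.1 ± 1.10 TPM, Prelp at 18.5 ± 8.03 and 12.3 ± 2.58 TPM, and Aspn (asporin) at 13.8 ± 3.31 and 8.501 ± 1.19 TPM. The mean log2 deviation of these 6 proteoglycan genes was 0.91 in LV WT-PLN replicate 3, against 0.12 and 0.08 in the other LV WT-PLN samples. It ran from -0.40 to -0.05 in LV R14del-PLN. In RV their median log2 fold change was -0.19. Of these 6 proteoglycan genes, 4 were at an unadjusted limma p of at most 0.05 in LV and 0 in RV. Of all genes, 9.6% and 6.22% were. The cluster neighbours of Dcn and Lum were not expressed at a level that could be tested, since Kera (keratocan) was listed at 0 in 10 of 12 samples and Epyc (epiphycan) had a mean of 0.34 TPM.

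The PDGF ligand and receptor genes besides Pdgfra had LV values near or above that of all genes. Of 5 genes, 2 were lower in LV R14del-PLN, and 0 or 1 with the other scalings, and the median was 0.03, with Pdgfa at 9.58 ± 1.44 TPM in LV WT-PLN and 10.7 ± 2.31 TPM in LV R14del-PLN, and Pdgfrb (the receptor beta of mural cells) at 8.01 ± 1.95 and 8.16 ± 1.76 TPM. In RV the median was 0.15. Of 10 genes for TCF21 partners and the epicardial lineage, 9 were tested, 6 of them lower in LV and 4 in RV, at a median of -0.08 in LV, which became 0.01 after quantile normalization (4 of 9 lower), and of 0.01 in RV. The 2 most abundant were among those with higher values, the E-protein gene Tcf4 at 15.9 ± 2.57 and 17.8 ± 3.55 TPM in LV and Gata4 at 30.2 ± 4.503 and 38.1 ± 5.62 TPM. Of 7 other gelsolin superfamily genes, 4 were tested at medians of -0.23 in LV (-0.12 after quantile normalization and -0.11 after upper quartile scaling) and -0.05 in RV, with Svil (supervillin) at 42.3 ± 3.70 and 46.6 ± 12.1 TPM in LV and Flii at 29.1 ± 3.67 and 25.1 ± 4.17 TPM. The 9 TGF-beta ligand, receptor and latent binding protein genes had medians of -0.22 in LV and -0.06 in RV. In both, 8 of 9 were lower (in LV 7 of 9 after quantile normalization and after upper quartile scaling, at medians of -0.12 and -0.10). Ltbp4 (a latent TGF-beta binding protein) was at 72.9 ± 16.0 and 58.7 ± 8.22 TPM in LV. None of these genes passed the test in any comparison. In LV, the counts at an unadjusted limma p of at most 0.05 were 0 of 5 PDGF and 1 of 9 TCF21 list genes. They were 0 of 4 for the gelsolin and 3 of 9 for the TGF-beta list, against 9.6% of all genes.

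**Figure D5:**
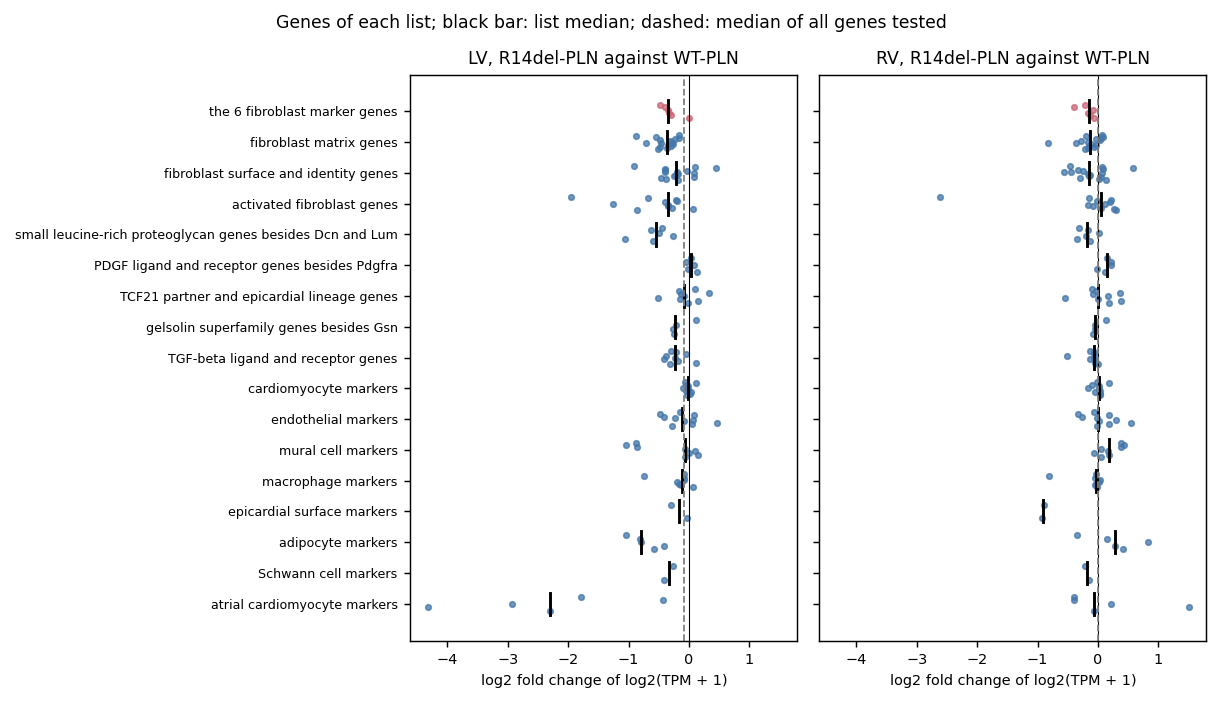
log2 fold change (x axes, log2(TPM + 1) scale) of every tested gene in each list (y axis) for R14del-PLN against WT-PLN, in LV (left) and RV (right). Black bars are list medians, such as -0.34 and -0.15 for the 6 fibroblast marker genes, and the dashed line is the median of all genes tested, -0.09 and -0.00.

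Markers of other cells were read in the same samples, because the tissue held all cardiac cell types. Cardiomyocyte markers defined the tissue as labelled, with 10 of 10 tested and Myl2 and Tnnt2 among the highest. Their list had median log2 fold changes of -0.02 in LV and 0.02 in RV between genotypes, and that in LV became 0.11 with upper quartile scaling. Endothelial markers (10 of 10 tested) had medians of -0.12 and 0.00, mural cell markers (8 of 8) -0.07 and 0.18, macrophage markers (8 of 10) -0.11 and -0.03, and Schwann cell markers (2 of 5) -0.34 and -0.18. With upper quartile scaling and quantile normalization the LV medians were 0.01 and -0.01 for endothelial, 0.05 and 0.04 for mural cell and -0.00 and -0.00 for macrophage markers, and without mitochondrially encoded genes the macrophage median in RV was 0.00. Adipocyte markers (5 of 6) had medians of -0.79 and 0.29, epicardial surface markers (2 of 7) -0.17 and -0.91, and atrial cardiomyocyte markers (5 of 6) -2.30 and -0.07. The atrial median in RV was 0.15 without mitochondrially encoded genes and 0.24 on the log2(TPM + 0.1) scale. On that scale the epicardial median in RV was -1.85. Epicardial genes were near the floor, with Upk3b at 1.86 ± 1.03 TPM in RV WT-PLN and 0.515 ± 0.477 TPM in RV R14del-PLN. None of the genes of these lists passed the test between genotypes.

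Over the 12 samples, the mean of the macrophage list moved with the mean of the 6 fibroblast marker genes at an r of 0.88. The r was 0.87 for the fibroblast matrix list, 0.90 for the surface and identity list and 0.88 for the activated fibroblast list. For the TGF-beta list it was 0.87. Without the 2 samples farthest from a list's own median, which can differ between lists, the value of the macrophage list was 0.81. Those of the matrix, surface and identity, activated and TGF-beta lists were 0.79, 0.85, 0.88 and 0.79. The summed level of the macrophage markers ranged from 97.1 to 140.2 TPM in LV WT-PLN, 96.5 to 126 TPM in LV R14del-PLN, 86.7 to 103 TPM in RV WT-PLN and 76.4 to 124 TPM in RV R14del-PLN, and 0 of the 10 genes was listed at 0. The same r was 0.44 for cardiomyocyte markers, 0.39 for endothelial markers, 0.65 for mural cell markers and 0.75 for adipocyte markers. Without the 2 farthest samples of each list these were 0.12, 0.39, 0.22 and 0.61.

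LV WT-PLN replicate 3, which was highest for 5 of the 6 genes, also had high values in other lists. Its summed atrial cardiomyocyte markers were at 1312 TPM, against 209 and 315 TPM in the other LV WT-PLN samples and 146 to 319 TPM in LV R14del-PLN. Its mural cell markers summed to 358 TPM against 185 and 239.8 TPM in the other LV WT-PLN samples, and its adipocyte markers to 23.1 TPM against 5.81 and 7.25 TPM. It was not alone in this, since atrial markers summed to 893 TPM in RV WT-PLN replicate 2, against 101 and 87.7 TPM in the other RV WT-PLN samples. They summed to 532 TPM in RV R14del-PLN replicate 2, against 199 and 46.1 TPM in the other RV R14del-PLN samples. By the mean log2 deviation of the atrial list, LV WT-PLN replicate 1 was at 0.61 and replicate 2 at -1.27, the reverse order of their sums. Adipocyte markers summed to 23.5 TPM in RV R14del-PLN replicate 1, the sample highest of its group for each of the 6 genes, against 4.52 and 5.82 TPM in the other RV R14del-PLN samples. Of the atrial list (5 of 6 tested), Sln was listed at 0 in 1 sample and Bmp10 in 2. The mean of the atrial list and that of the 6 fibroblast marker genes had an r of 0.28 over the 12 samples, and -0.13 without the 2 farthest. Without LV WT-PLN replicate 3 the median of the 6 in LV was -0.20, against -0.02 for all genes. The part of these cells in the fibroblast marker levels was not tested.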

How the data were processed

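RNA of frozen LV and RV tissue was sequenced by the study from stranded poly(A) libraries, mapped to GRCm38 with CLC Genomics Workbench and deposited by the authors as 1 table of TPM per sample. The program behind the TPM and its annotation are not given in the sources used here, and TPM of 1 sample sum to a fixed total, so that a change in abundant mitochondrial transcripts moves every other value. Groups came from sample titles. TPM were taken as log2(TPM + 1), genes averaging 0.5 TPM or more were kept, and the 4 group means were fitted over all 12 samples with limma 3.58.1 (R 4.3.3, trended empirical Bayes), 8 residual degrees of freedom and Benjamini-Hochberg adjustment over all 12526 genes. The thresholds of the study were used (adjusted p up to 0.05 with a change of 1.5-fold or more), and the interaction used the adjusted p alone. Replicates are separate samples of a group, and where they are not separate hearts the p-values cover only the spread between samples.

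Pairing by replicate number was checked by the correlation of deviations from the group means over genes. Between LV and RV of WT-PLN it was 0.66, 0.32 and 0.46 for the same number, and -0.46 to 0.00 for unlike numbers. Numbers were taken to pair these samples. In R14del-PLN it was 0.39, 0.23 and 0.05, against -0.40 to 0.16, and they were not. Deviations from a mean of 3 samples sum to 0, so a high r for the same number lowers that of unlike numbers. Samples of the same number but another genotype had -0.02 to 0.22. These values thus do not settle in either genotype whether a number stands for a heart. The members and gene lists were chosen with earlier results of these data known. Genes named are the 6 markers, the 3 genes most correlated with each and the 10 most correlated with their mean, called list genes and the 2 to 4 most abundant genes of a list. Some genes that this rule names are not reported here. The fit was tested on simulated data. Upstream sequences came from RefSeq and near copies were searched with BLAST 2.17.0. Alternatives were other pseudocounts, filters and scalings, replicate blocks and leaving out samples.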

Additional observations from a re-analysis of the deposited data

How the results depend on the processing

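None of the 6 fibroblast marker genes was called in any comparison under any alternative (lowest limma adjusted p 0.216). With quantile normalization, the log2 fold changes that changed sign were Pdgfra 0.099 in LV, Dcn 0.12 between the ventricles of WT-PLN, Pdgfra 0.043, Tcf21 0.0020 and Lum 0.094 between those of R14del-PLN, and the interaction of Gsn -0.018. With upper quartile scaling they were, in the same order, 0.11, 0.12, 0.038, 0.0095, 0.080 and -0.11, and without mitochondrially encoded genes the first 5 were 0.0081, 0.051, 0.10, 0.067 and 0.15. Without both WT-PLN replicate 1 samples, Pdgfra -0.052 and Gsn -0.10 between the ventricles of WT-PLN and the interaction of Pdgfra 0.0015 changed sign. The median correlation among the 6 genes was 0.557 after upper quartile scaling and 0.457 after quantile normalization.

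Leaving out 1 sample at a time changed signs as follows, given as ranges. The genotype effect of Pdgfra was -0.19 to 0.19 in LV and -0.14 to 0.022 in RV, and that of Lum in RV -0.21 to 0.061. Between the ventricles of WT-PLN, Pdgfra was -0.076 to 0.085, Dcn -0.31 to 0.13 and Gsn -0.18 to 0.18. Between those of R14del-PLN, Pdgfra was -0.24 to 0.14, Tcf21 -0.24 to 0.045, Dcn -0.090 to 0.22, Lum -0.15 to 0.20, Gsn -0.19 to 0.19 and Dpt -0.23 to 0.17. The interaction was -0.25 to 0.13 for Pdgfra, -0.0032 to 0.28 for Tcf21, -0.057 to 0.38 for Dcn and -0.22 to 0.21 for Gsn.

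At an unadjusted p of at most 0.05, up to 4 of the 6 genes were counted in LV (Tcf21, Dcn, Gsn and Dpt, without LV WT-PLN replicate 1), where 14.6% of all genes passed, against 0 and 9.6% with all samples. Over all genes, 65 were called in LV and 34 in RV, against 22 and 17 with no filter, 101 and 85 after quantile normalization, 101 and 84 after upper quartile scaling, 119 and 62 with a replicate block, and 230 and 88 without both WT-PLN replicate 1 samples. Without mitochondrially encoded genes 73 were called in RV. Leaving out 1 sample gave 19 to 153 in LV and 14 to 48 in RV. Counts between ventricles and for the interaction were 0, and 0 to 12 under the alternatives. The cause of these shifts was not tested. The replicate block changed no call of the 6 genes. With 3 samples a group and unknown depth, the intervals of the 6 genes in LV still included changes to 0.508-fold.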
